A study of Mus musculus with 17 samples.

Results

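Collagens are the main structural proteins of the extracellular matrix, built from chains wound together into a triple helix. Fibrillar collagens form the fibres of connective tissue, the fibril-associated collagens with interrupted helices (FACITs) coat those fibres, and further types form beaded filaments, networks, anchoring fibrils, membrane-bound chains or basement membrane proteoglycans. Inside the cell the chains are hydroxylated, folded with the chaperone HSP47 and exported, and outside it their ends are trimmed and the fibres are crosslinked. Type IV collagens, the network collagens of basement membranes, were left out here. The genes described are the protein-coding genes of the deposited table that are named Col with a type number and a chain number. Of the 54532 genes listed, 38 met this rule, and 26 of them reached a level of 1 TPM, a unit of reads scaled for gene length and library depth, in at least 2 libraries and were tested. They comprise 10 of 11 fibrillar genes, 6 of 9 FACIT genes, 2 of 6 type VI genes, 2 of 3 network genes of types VIII and X, 3 of 4 transmembrane genes, 1 of 2 multiplexin genes (types XV and XVIII), the type VII gene, and 1 of the pair formed by Col26a1 and Col28a1.

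Bulk RNA was sequenced from R1/E mouse embryonic stem cells, a line derived from a mouse embryo, in 17 libraries. The cells were wild-type or Usb1 knockout, and were taken at day 0, in self-renewal culture, and after 1 and 3 days of differentiation with retinoic acid (RA). There were 3 replicates in 5 of the 6 groups and 2 in the group of wild-type cells at day 0. Usb1 encodes the exonuclease that trims the end of U6 small nuclear RNA, and the knockout was made with CRISPR/Cas9. The sequenced knockout cells were of 1 line, KO-1, so that the knockout and the line cannot be told apart. Usb1 RNA was still detected in that line, at 14.7 to 21.4 TPM against 32.0 to 56.9 TPM in the wild-type libraries. All 6 embryonic stem cell markers examined were present at day 0, with a summed level of 5063 to 5152 TPM in wild-type and 4927 to 5394 TPM in knockout libraries, and all 6 fell by day 3 in both genotypes.

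Reads on genes, recovered from the TPM values, numbered 15404379 to 17300186 per library. Wild-type replicate 1 at day 0 had 239 genes of a single read and knockout replicate 1 at day 3 had 1212, whereas wild-type replicate 2 at day 0 had 1341 and the remaining libraries 2135 to 2448. A 0 in wild-type replicate 1 at day 0 therefore cannot be read like a 0 in the other libraries. Collagen calls lost without this replicate or without knockout replicate 1 at day 3 are named below. Values were compared as log2(TPM + 1), on which a change of a gene below a few TPM is understated, and a gene was called at a Benjamini-Hochberg adjusted p under 0.05 over all 21871 genes tested with a change of at least 2-fold. In bulk RNA, fewer cells of a type and less RNA per cell cannot be told apart.

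The stretches of 150 bases just upstream of the RefSeq transcription start (GRCm38.p6) are shown for 4 genes whose levels stood out in the comparisons below. Col3a1 (chr1:45311388-45311537, + strand) was close to 0 until day 3, Col8a1 (chr16:57754738-57754887, - strand) also appeared late, Col5a3 (chr9:20815068-20815217, - strand) was highest at day 0, and Col13a1 (chr10:61979109-61979258, - strand) peaked at day 1. Each is written 5′ to 3′ on the strand of its gene, and capitals mark letter matches to promoter elements on either strand. These are TATAAA (the core element bound by the general factor TFIID), CCAAT (bound by the factor NF-Y) and GGGCGG (the GC box, bound by factors of the Sp family). Whether a match acts as the element at its place was not tested.
Col3a1: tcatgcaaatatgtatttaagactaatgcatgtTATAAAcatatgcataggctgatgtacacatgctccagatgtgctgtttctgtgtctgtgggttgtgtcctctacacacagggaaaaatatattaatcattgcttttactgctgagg
Col8a1: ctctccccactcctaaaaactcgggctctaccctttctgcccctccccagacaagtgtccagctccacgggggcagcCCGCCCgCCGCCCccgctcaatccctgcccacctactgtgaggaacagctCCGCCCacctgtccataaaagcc
Col5a3: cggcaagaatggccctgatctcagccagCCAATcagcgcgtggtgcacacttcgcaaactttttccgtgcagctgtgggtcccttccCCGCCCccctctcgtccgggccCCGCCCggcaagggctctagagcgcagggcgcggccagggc
Col13a1: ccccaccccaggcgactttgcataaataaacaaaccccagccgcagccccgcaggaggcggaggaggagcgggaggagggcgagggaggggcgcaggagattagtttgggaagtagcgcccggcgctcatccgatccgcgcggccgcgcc
The 4 stretches differ in base composition. G and C make up 37.3% of the Col3a1 stretch, 64.7% of that of Col8a1, and 68.7% of those of Col5a3 and Col13a1. The Col3a1 stretch holds TATAAA 117 bases before the start and no GC box, that of Col8a1 holds 3 GC boxes, and that of Col5a3 holds 2 GC boxes and 1 CCAAT. None of the 3 motifs is in the stretch of Col13a1.

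RefSeq promoter windows, from 250 bases before to 50 bases after the start, were found for 30 of the 38 genes and for 19 of the 26 tested, 33 windows in all. Among the tested genes, Col1a1, Col2a1, Col5a2, Col9a3, Col12a1, Col22a1 and Col26a1 had none in the table. Searched on both strands, GGGCGG was present in 19 of the 33 windows and in 35.7% of all promoter windows of the same length. TATAAA was present in 5 of the 33 and in 13.6% of all, and CCAAT in 10 of the 33 and in 37.4% of all. AGGTCA, the core of the sites that receptors of RA bind, was present in 7 of the 33 and in 16.3% of all. The direct repeat of that core with 5 bases between its copies, which overlaps the search for the core, was in none of the 33 windows and in 0.009% of all.

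One gene made up most of the RNA of these collagens in every library. Col18a1, which encodes the chain of the basement membrane proteoglycan collagen XVIII and gives rise to endostatin, accounted for 80.5% to 88.2% of the summed TPM of the 38 genes. In wild-type cells it was at 406 and 406 TPM at day 0, at 807, 709 and 674 TPM at day 1, then 1170, 1019 and 1127 TPM at day 3. In knockout cells it was at 368, 337 and 339 TPM at day 0, at 696, 681 and 601 TPM at day 1, then 1480, 1749 and 1317 TPM at day 3. The 3 days did not overlap in either genotype, and at day 3 every knockout library lay above every wild-type library. The summed level of the 37 other genes was far lower. It went from 54.4 to 62.9 TPM at day 0 to 238 to 272 TPM at day 3 in wild-type cells, and from 52.2 to 55.8 TPM to 286 to 358 TPM in knockout cells.

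**Figure D1:**
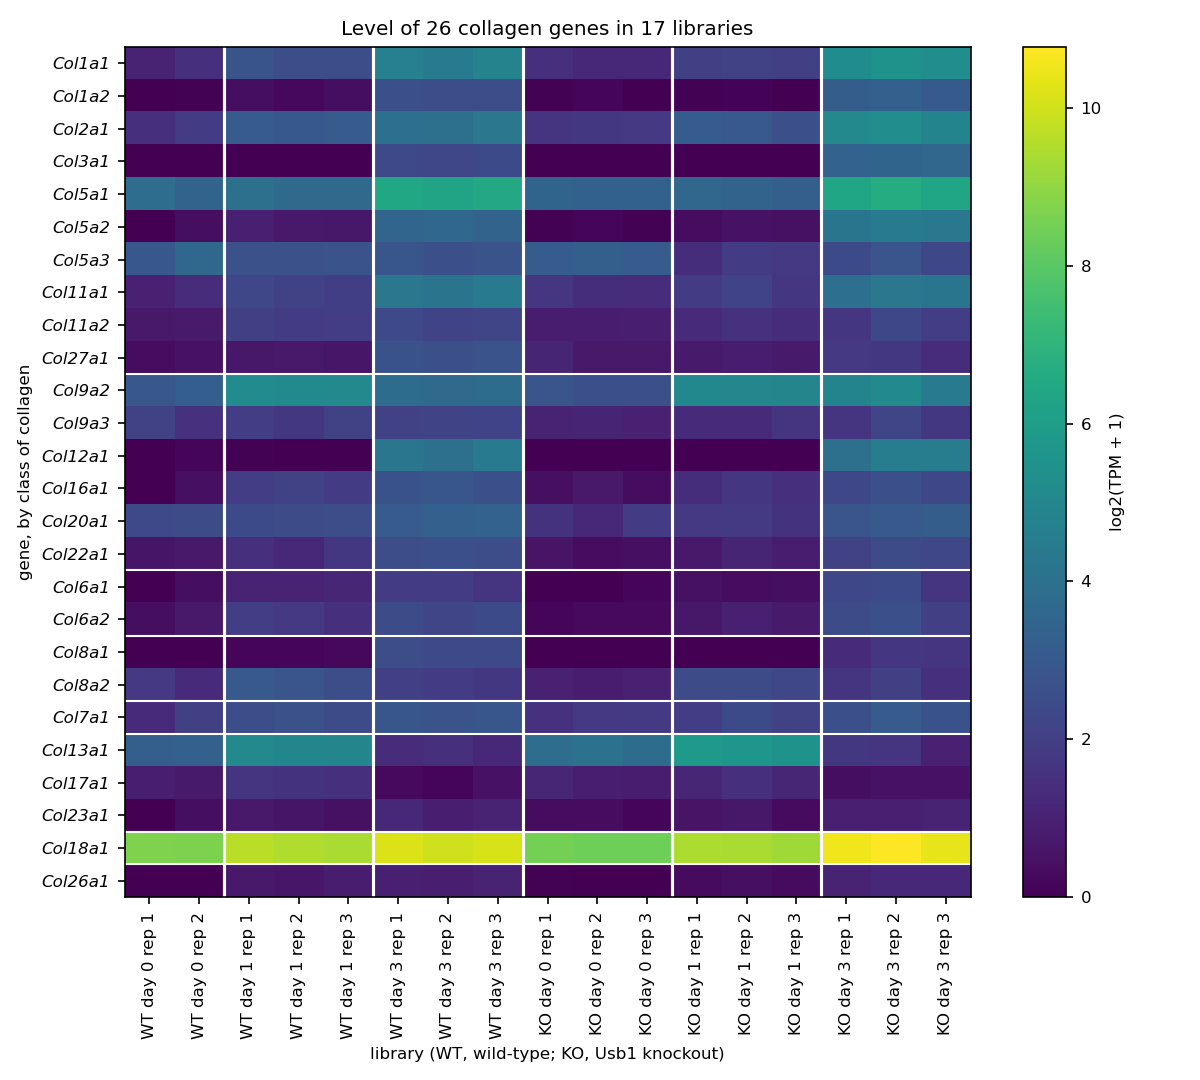
Level of the 26 tested collagen genes (rows, ordered by class, classes parted by thin white lines) in the 17 libraries (columns, groups parted by thick white lines), coloured by log2(TPM + 1). Col18a1 is the brightest row in every column, most fibrillar genes are dark until day 3, and Col13a1 and Col9a2 are brightest at day 1 in wild-type cells.

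Most of these collagens rose during differentiation. From day 0 to day 3 in wild-type cells, 17 of the 26 genes were called higher and 1, Col13a1, lower. Of all genes tested, 25.8% were called in this comparison and 16.1% were called higher. In knockout cells 19 were called higher and 1, again Col13a1, lower, where 21.9% of all genes were called and 13.8% were called higher. Of the protein-coding genes tested, 29.4% were called in wild-type and 26.1% in knockout cells. The median log2 fold change over the 26 genes was 1.72 in wild-type and 1.87 in knockout cells, beside 0.10 and 0.03 over all genes tested. Col1a2, Col3a1, Col5a2, Col8a1, Col12a1, Col23a1 and Col26a1 reached 1 TPM only in day 3 libraries. Col27a1 otherwise did so only in knockout replicate 1 at day 0. The filter therefore admitted these genes through their day 3 levels, which favours a rise in these counts and medians. The same filter was applied to all genes. Without wild-type replicate 1 at day 0, 16 were called higher in wild-type cells, the gene lost being Col7a1. Without this library and knockout replicate 1 at day 3, the log2 fold changes of the 26 genes shifted by -0.38 to 0.30 in wild-type and by -0.15 to 0.20 in knockout cells. The highest mean was at day 3 for 21 genes in both genotypes, at day 1 for Col8a2, Col9a2, Col13a1 and Col17a1, and at day 0 for Col5a3.

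Of the 10 fibrillar genes tested, 9 were called higher at day 3 than at day 0 in wild-type cells, all but Col5a3, and 8 in knockout cells, all but Col5a3 and Col27a1. Col1a1 encodes the major chain of type I collagen, the collagen of bone, skin and tendon. Wild-type libraries held 1.08 and 1.75 TPM at day 0, 5.93, 4.82 and 4.83 TPM at day 1, and 24.9, 19.96 and 27.4 TPM at day 3. Knockout libraries held 1.82, 1.34 and 1.36 TPM, then 3.13, 3.21 and 3.10 TPM, and then 36.4, 43.9 and 37.3 TPM. The days did not overlap, and the log2 fold change from day 0 to day 3 was 3.38 (SE 0.17, adjusted p = 3.6e-10) in wild-type and 4.01 (SE 0.15, adjusted p = 1.5e-11) in knockout cells.

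Col1a2, the second chain of type I collagen, started from almost no RNA. Wild-type cells had 0 and 0.0545 TPM at day 0, 0.171 to 0.301 TPM at day 1 and 5.15, 4.78 and 4.89 TPM at day 3. Knockout cells remained at 0.0175 to 0.101 TPM at day 0 and at 0.0154 to 0.0816 TPM at day 1, which is 1 to 6 reads a library, and reached 7.95, 8.83 and 7.29 TPM at day 3. The ratio of Col1a1 to Col1a2 TPM at day 3 was 4.18 to 5.59 in wild-type and 4.57 to 5.12 in knockout libraries, so the levels of these partner chains stood in overlapping ratios in both genotypes, although each was higher in the knockout libraries. 

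Col3a1, the chain of the reticular fibre collagen III, was absent or at 1 read in every library at day 0 and day 1. By day 3 the wild-type libraries had reached 4.14, 3.94 and 4.40 TPM and the knockout libraries 9.35, 10.1 and 10.8 TPM, and the groups did not overlap. Against 3 reads per library, the limit set for a count of 0, the level in knockout cells at day 3 was at least 163-fold higher than at day 1. Col5a2, which lies 24.6 kb from Col3a1 on chromosome 1 on the opposite strand and whose product joins type V collagen, the collagen that starts type I fibrils, followed a like course. Wild-type cells went from 0 and 0.330 TPM at day 0 to 10.3, 11.2 and 9.82 TPM at day 3, and knockout cells from 0.0452 to 0.109 TPM to 17.02, 19.9 and 18.8 TPM. On the log2 scale this was a rise of 3.31 (SE 0.18, adjusted p = 8.1e-10) in wild-type and of 4.20 (SE 0.16, adjusted p = 1.6e-11) in knockout cells.

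Col5a1, the main chain of type V collagen, had the second highest mean of the 26 genes at day 3. In wild-type cells the values were 13.3 and 9.84 TPM at day 0 and 14.7, 12.4 and 12.2 TPM at day 1, without a call, and 87.1, 77.5 and 89.8 TPM at day 3. The knockout libraries held 10.03, 9.25 and 9.31 TPM at day 0, 10.8, 9.74 and 8.70 TPM at day 1, and 78.6, 102 and 80.3 TPM at day 3, and overlapped with the wild-type libraries at the last day. The log2 fold change from day 0 to day 3 was 2.78 (SE 0.14) and 3.05 (SE 0.12) in the order wild-type and knockout.

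Col2a1 and Col11a1, which encode collagens of cartilage, rose as well. Col2a1 was at 1.70 and 2.81 TPM at day 0, at 7.63, 6.87 and 7.65 TPM at day 1, then 14.4, 14.7 and 18.4 TPM at day 3 in wild-type cells. The knockout libraries were at 2.04, 2.33 and 2.42 TPM, at 7.69, 6.97 and 5.11 TPM, and at 32.2, 37.3 and 27.7 TPM. The 2 genotypes overlapped at day 0 and day 1 and not at day 3. Col11a1 went from 1.002 and 1.56 TPM at day 0 to 18.5, 16.9 and 20.04 TPM at day 3 in wild-type cells, and from 2.24, 1.68 and 1.58 TPM to 14.4, 18.1 and 17.2 TPM in knockout cells, with overlap at day 3. Its partner Col11a2 ended at 3.56 to 4.21 TPM in wild-type and 2.27 to 3.999 TPM in knockout libraries, and the call in knockout cells was lost without replicate 2 at day 3, when the log2 fold change was 0.99.

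Col5a3, a further chain of type V collagen, had its highest mean at day 0. It was at 6.52 and 11.5 TPM at day 0 in wild-type cells and at 5.30 to 5.82 TPM at day 1, and in knockout cells it went from 7.83, 8.70 and 7.46 TPM to 1.68, 2.62 and 2.42 TPM, a called fall of 1.48 on the log2 scale (SE 0.19, adjusted p = 3.7e-05). The change in wild-type cells, -0.58 (SE 0.21, adjusted p = 0.044), was below 2-fold, and the difference between the genotypes in this change was not significant (-0.90, SE 0.29, adjusted p = 0.12). At day 3 it was at 5.25 to 6.28 TPM in wild-type cells and at 4.38, 6.18 and 4.09 TPM in knockout cells, above every knockout library of day 1. This change in knockout cells of 0.86 (SE 0.19, adjusted p = 0.0019) was below 2-fold on the log2(TPM + 1) scale. Col27a1, a collagen of cartilage and of the growth plate, reached 5.49, 5.26 and 5.84 TPM at day 3 in wild-type cells from 0.273 and 0.433 TPM at day 0. Knockout cells went from 1.15, 0.659 and 0.667 TPM to 2.48, 2.39 and 1.57 TPM. This change of 0.78 (SE 0.17) was below 2-fold on the log2(TPM + 1) scale, while the mean went from 0.825 to 2.15 TPM. Col24a1, the remaining fibrillar gene, did not exceed 0.346 TPM in any library and was not tested.

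**Figure D2:**
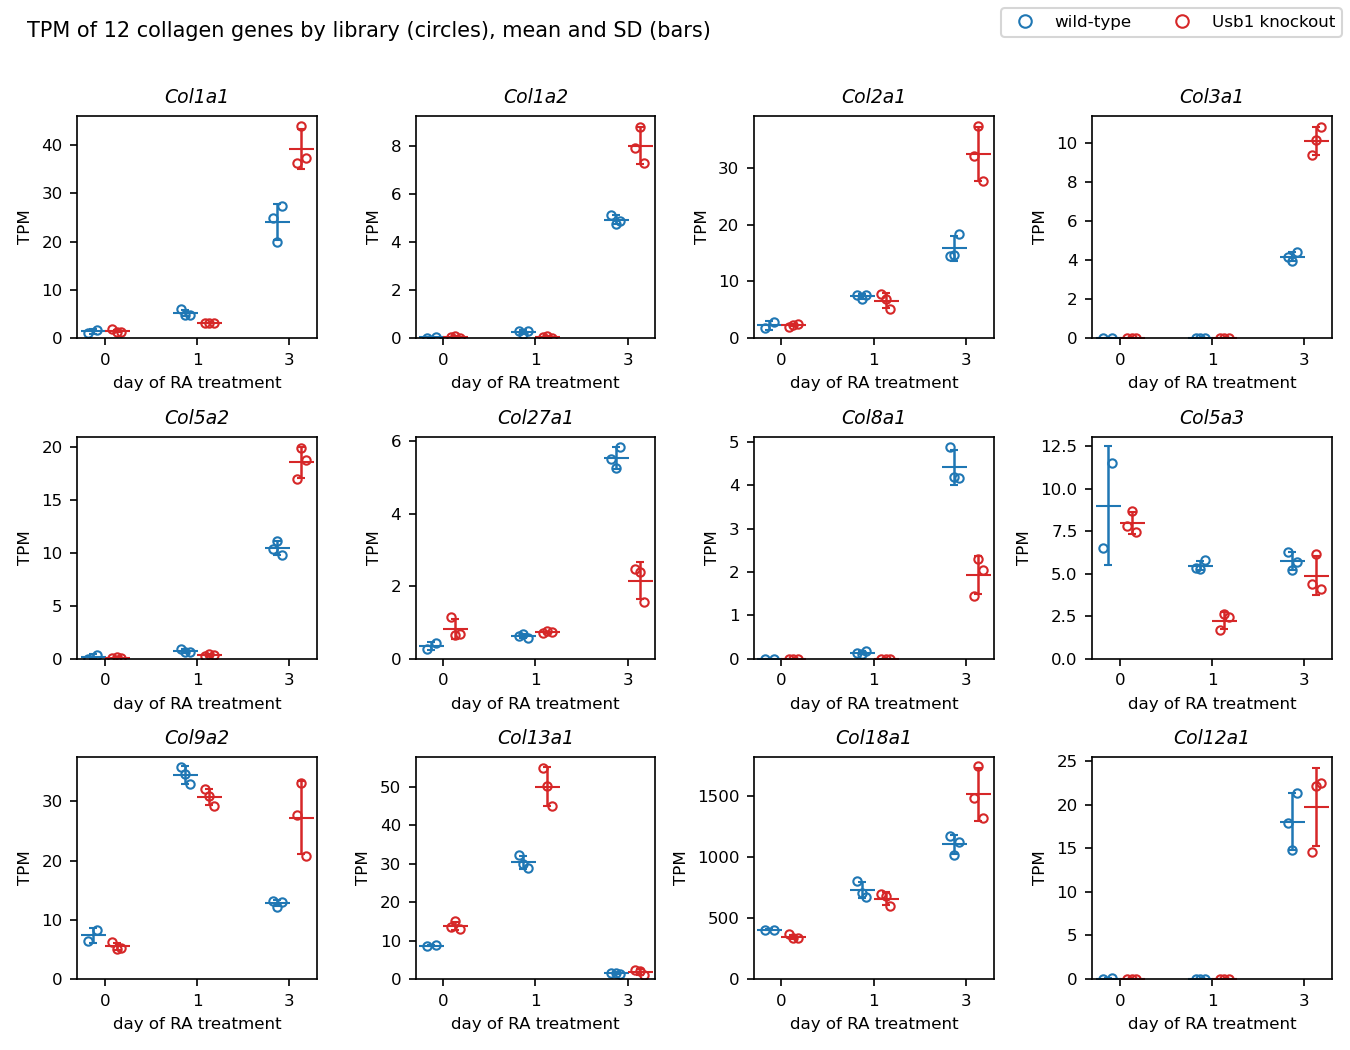
TPM of 12 collagen genes (1 panel each, its own linear axis from 0) against day of RA treatment in wild-type (blue) and Usb1 knockout (red) cells, with circles for libraries and bars for mean and SD (n = 2 for wild-type at day 0, otherwise 3). Col3a1 and Col12a1 are near 0 until day 3, Col13a1 peaks at day 1 in both genotypes, and Col27a1 and Col8a1 are lower in the knockout libraries at day 3.

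Among the FACITs, Col12a1 showed the largest change of the 26 genes on the log2(TPM + 1) scale in both genotypes. Collagen XII links fibrils to the surrounding matrix. Col12a1 went from 0 and 0.119 TPM at day 0 to 17.9, 14.8 and 21.3 TPM at day 3 in wild-type cells, and from 0 in all 3 libraries to 14.5, 22.2 and 22.5 TPM in knockout cells. At day 1 there were 1 to 3 reads a library. The level in knockout cells at day 3 was at least 467-fold higher than 3 reads per library at day 0, and the genotypes overlapped at day 3.

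Col9a2, one of the chains of the cartilage collagen IX, behaved otherwise. In wild-type cells it was at 6.49 and 8.24 TPM at day 0, at 35.9, 34.6 and 32.9 TPM at day 1, then 13.2, 12.2 and 13.04 TPM at day 3. The knockout libraries were at 6.23, 5.14 and 5.19 TPM, at 32.0, 30.9 and 29.3 TPM, and at 27.7, 33.2 and 20.8 TPM. The rise at day 1 was called in both genotypes (log2 fold change 2.09 and 2.29). From day 1 to day 3 wild-type cells had a called fall of 1.36 on the log2 scale (SE 0.14, adjusted p = 1.1e-06), and the change in knockout cells, -0.19, was not called (adjusted p = 0.29). Its partner chains were scarce. Col9a3 was between 0.958 and 3.78 TPM in all libraries and Col9a1 did not exceed 0.130 TPM, so that the ratio of Col9a2 to Col9a3 at day 3 was 3.43 to 3.99 in wild-type and 8.77 to 12.5 in knockout libraries. Col9a3 shares 6.07% of its exon length with Tcfl5 on the opposite strand, and the library kit is not stated to keep strand.

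Col16a1 and Col22a1, FACITs of many matrices and of tissue junctions, were called higher at day 3 in both genotypes. Col16a1 went from 0 and 0.368 TPM to 5.19 to 6.45 TPM in wild-type and from 0.289 to 0.682 TPM to 4.02 to 5.19 TPM in knockout cells, and it was also called at day 1 in both. In knockout cells that call at day 1 was lost without replicate 1 or 3 at day 0 or without replicate 2 at day 1, with a lowest log2 fold change of 0.92. Col22a1 ended at 4.86 to 5.19 TPM in wild-type and 3.30 to 4.45 TPM in knockout cells. Col20a1 was called higher at day 3 in knockout cells (log2 fold change 1.45) and not in wild-type cells (0.82), and the difference between these changes was not significant (0.63, SE 0.25, adjusted p = 0.15). Col14a1 and Col19a1 were not tested.

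The type VI genes Col6a1 and Col6a2 lie 85.2 kb apart on chromosome 10 and encode chains of the beaded filaments around cells. Both were called higher at day 3 in both genotypes. Col6a1 was at 2.12 to 2.81 TPM and Col6a2 at 3.78 to 4.54 TPM in wild-type cells at day 3, and they were at 2.09 to 4.42 TPM and 3.14 to 5.28 TPM in knockout cells. The call of Col6a2 at day 1 in wild-type cells was lost without replicate 1 at day 0. Col6a3, the third chain of the classic heterotrimer, did not exceed 0.0776 TPM in any library. Col6a4, Col6a5 and Col6a6, which are related to Col6a3 and can take its place in the filament, reached at most 0.768, 0.429 and 0.625 TPM.

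The network collagen VIII, a short-chain collagen of endothelial and corneal matrix, is made of the products of Col8a1 and Col8a2, and the 2 genes had different time courses. Col8a1 was at 0 in all 5 libraries at day 0. Wild-type libraries held 0.140, 0.108 and 0.169 TPM at day 1 and 4.88, 4.18 and 4.18 TPM at day 3. Knockout libraries were again at 0 at day 1 and held 1.43, 2.30 and 2.04 TPM at day 3, below every wild-type library. Against 3 reads per library at day 1, the level in knockout cells at day 3 was at least 24.8-fold higher. Col8a2 instead was highest at day 1, at 7.05, 6.10 and 4.91 TPM in wild-type and at 4.44, 4.52 and 3.89 TPM in knockout cells, and both rises were called. At day 3 the ratio of Col8a1 to Col8a2 was 1.51 to 1.80 in wild-type and 0.692 to 1.10 in knockout libraries, without overlap. Col10a1, the hypertrophic cartilage collagen of the same class, reached at most 0.473 TPM.

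Of the transmembrane collagens, Col13a1 and Col17a1 were lower at day 3 than at day 1. Col13a1, a collagen of cell adhesion sites and the neuromuscular junction, was at 8.64 and 8.78 TPM at day 0 in wild-type cells, at 32.3, 30.02 and 28.9 TPM at day 1, then 1.55, 1.70 and 1.31 TPM at day 3. In knockout cells it was at 13.5, 15.0 and 13.1 TPM, at 55.0, 50.1 and 45.0 TPM, and at 2.40, 2.13 and 0.970 TPM. The log2 fold change from day 0 to day 1 was 1.69 (SE 0.18, adjusted p = 5.7e-06) in wild-type and 1.78 (SE 0.16, adjusted p = 1.6e-06) in knockout cells. From day 1 to day 3 it fell by 3.64 and 4.21, the strongest falls among the 26 genes. Col17a1, the hemidesmosome collagen, was at 1.76 to 2.097 TPM at day 1 and 0.147 to 0.443 TPM at day 3 in wild-type cells, a called fall of 1.21 on the log2 scale. In knockout cells it was at 1.23 to 1.79 TPM and then at 0.336 to 0.443 TPM, a change of -0.78 that was below 2-fold by limma and was called by voom on reads (-1.90, adjusted p = 0.00023). The difference between these changes was not significant (0.43, SE 0.24, adjusted p = 0.34). Col23a1 did not exceed 1.32 TPM. It was not called by limma in any comparison on the log2(TPM + 1) scale, whereas voom on recovered reads called it higher than at day 0 in wild-type cells at day 1 (2.78) and day 3 (3.82) and in knockout cells at day 3 (1.95). Both wild-type values rest in part on a 0 in replicate 1 at day 0, beside 8 reads in replicate 2. Col25a1 was not tested. The deposited TPM of Col17a1 and Col11a2 did not give whole reads with their exon lengths, so the numbers of reads behind them are approximate.

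Col7a1 and Col26a1 were also tested. Col7a1, which forms the anchoring fibrils under epithelia, went from 1.40 and 3.09 TPM to 5.71 to 6.45 TPM in wild-type and from 1.94 to 2.57 TPM to 5.27 to 7.55 TPM in knockout cells. Its log2 fold change was 1.19 in wild-type cells, where the call was lost without replicate 1 at day 0 (0.81), and 1.09 in knockout cells, where it was lost without replicate 2 at day 3 (0.92). Col26a1 reached 0.879 to 1.05 TPM in wild-type and 1.09 to 1.36 TPM in knockout cells at day 3, and was called higher than at day 0 in the latter (1.13 on the log2 scale) and not in the former (0.97), without a significant difference between these changes (0.16, adjusted p = 0.73). It was at or near 0 at day 0, so that voom on reads gave it larger changes, of 6.17 in wild-type and 4.69 in knockout cells, both called. Col15a1, the relative of Col18a1, was just below the filter, with 1.22 TPM from 37 reads in wild-type replicate 1 at day 0 as its single value above 1 TPM, while Col23a1, just above the filter, passed in 3 libraries.

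By day 1 fewer genes had moved. In wild-type cells 8 of the 26 were called higher than at day 0 and none lower, where 13.9% of all genes tested were called. These were Col1a1, Col2a1, Col6a2, Col8a2, Col9a2, Col11a2, Col13a1 and Col16a1. In knockout cells Col2a1, Col8a2, Col9a2, Col13a1 and Col16a1 were called higher and Col5a3 lower, where 6.95% of all genes were called. These counts depend on the scale, since many of these genes were below 1 TPM at day 0. With reads tested by voom, 18 were called higher in wild-type cells, where voom called 20.2% of all genes. Voom was not fitted without wild-type replicate 1 at day 0. That library had 0 reads of Col1a2, Col5a2, Col6a1, Col16a1 and Col23a1, where replicate 2 had 3 to 14. In knockout cells voom called 12 higher and 1 lower, and 10.6% of all genes. The median log2 change of all genes tested in wild-type cells at day 1 was 0.17, and that of the 26 genes was 0.77.

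From day 1 to day 3, 10 genes were called higher and 3 lower in wild-type cells, where 15.2% of all genes were called. The 3 were Col9a2, Col13a1 and Col17a1. In knockout cells 14 were called higher and 1, Col13a1, lower, where 15.3% of all genes were called. For the 16 genes called higher at day 3 than at day 0 in both genotypes, the part of the rise in mean TPM already present at day 1 had a median of 22.1% in wild-type and 7.37% in knockout cells, and it was larger in wild-type cells for 15 of the 16. For the 8 fibrillar genes among them the medians were 8.97% and 2.98%. These shares describe the means of the groups and were not tested. They were not worked out for all genes, of which 13.9% in wild-type and 6.95% in knockout cells were called by day 1.

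**Figure D3:**
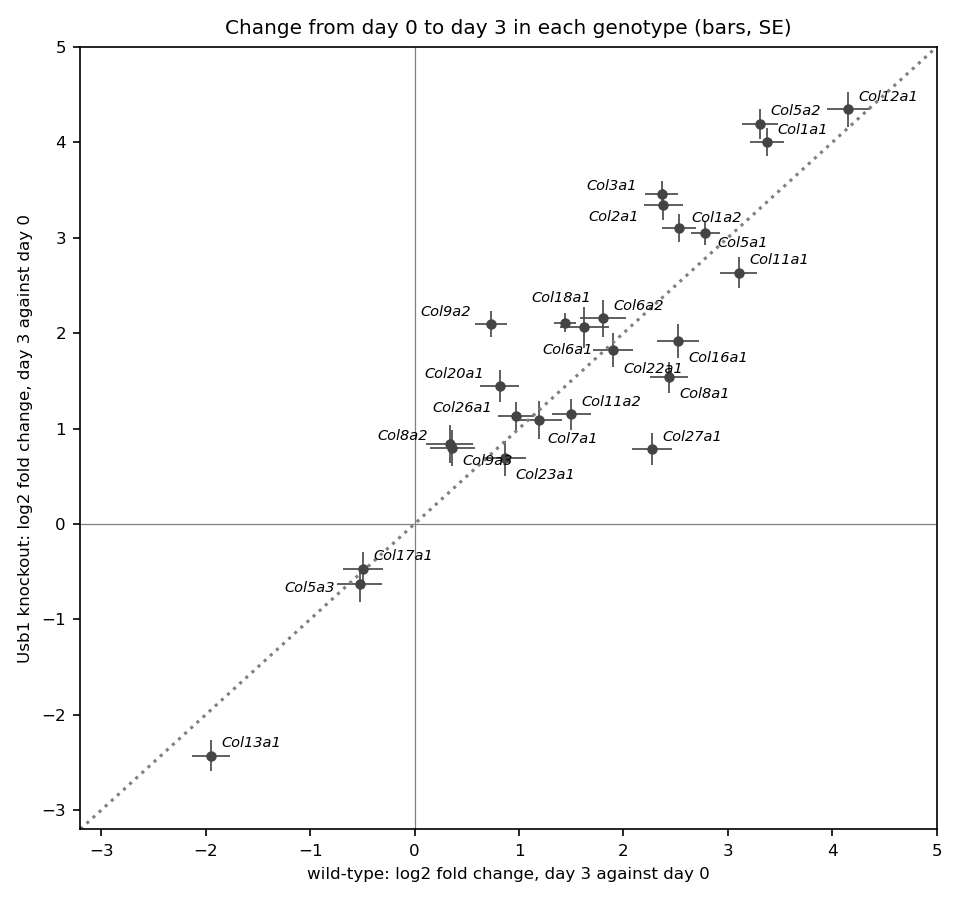
Log2 fold change from day 0 to day 3 on the log2(TPM + 1) scale of the 26 tested collagen genes in wild-type (x axis) and Usb1 knockout cells (y axis), with SE as bars and the line of equal change dotted. Col12a1, Col5a2 and Col1a1 lie at the upper right, Col13a1 at the lower left, Col9a2 above the line (0.73 and 2.09) and Col27a1 below it (2.27 and 0.78).

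At day 0 none of the 26 genes was called between the genotypes by limma, where 3.05% of all genes tested were called. With 26 genes and 2 wild-type libraries, this count does not set the collagens apart from all genes. Means still differed for some low genes, such as Col8a2 (1.94 TPM in wild-type, 0.909 TPM in knockout cells) and Col6a2 (0.502 and 0.180 TPM). At an unadjusted p under 0.05 there were 6, as was so for 27.4% of all genes. With reads tested by voom 2 were called, Col20a1 and Col9a3, both lower in knockout cells, where voom called 5.86% of all genes. Wild-type cells had 4.23 and 4.65 TPM of Col20a1 and knockout cells 1.98, 1.34 and 2.62 TPM, a log2 difference of -0.89 (SE 0.19, adjusted p = 0.0077). Col9a3 was at 3.37 and 1.88 TPM and at 1.12, 1.14 and 0.958 TPM (-0.77, SE 0.23, adjusted p = 0.040). Col13a1 was higher in every knockout library, with a log2 difference of 0.61 (SE 0.18, adjusted p = 0.044). All 3 differences were below 2-fold on this scale.

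At day 1, 24 of the 26 genes had a lower fitted level in knockout than in wild-type cells, the exceptions being Col13a1 and Col27a1. The 24 include Col3a1 and Col12a1, which had at most 3 reads in any library of that day. How many of all genes were lower was not counted. The median log2 difference over the 26 was -0.36, while that over all genes tested was -0.13. In 20 of the 26, the libraries of the genotypes did not overlap, as was so for 39.8% of all genes. Only Col5a3 was called, where 2.22% of all genes were called. Wild-type libraries held 5.33, 5.30 and 5.82 TPM and knockout libraries 1.68, 2.62 and 2.42 TPM, a log2 difference of -1.01 (SE 0.19, adjusted p = 0.0025). The call was lost without wild-type replicate 3 (-0.95) or knockout replicate 1 (-0.81) at day 1 and after quantile normalization (-0.90). Each time the difference was below 2-fold on the log2(TPM + 1) scale.

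Several of the other genes were low at day 1, so that differences in their TPM were larger than those on the log2(TPM + 1) scale. Wild-type libraries held 2.90, 2.45 and 1.77 TPM of Col6a2 and knockout libraries 0.611, 0.949 and 0.715 TPM, a ratio of means of 0.320 and a log2 difference of -0.93 (SE 0.20, adjusted p = 0.0052). Col6a1 was at 1.10, 1.07 and 1.21 TPM and at 0.387, 0.278 and 0.307 TPM. With reads tested by voom, Col1a2, Col6a2, Col8a1 and Col26a1 were called lower in knockout cells beside Col5a3, where voom called 3.04% of all genes. The voom log2 difference was -1.52 (SE 0.34, adjusted p = 0.0034) for Col6a2 and -2.27 (SE 0.67, adjusted p = 0.024) for Col1a2. Col1a1 was at 4.82 to 5.93 TPM in wild-type and at 3.10 to 3.21 TPM in knockout cells (-0.57, SE 0.15, adjusted p = 0.017), below 2-fold.

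At day 3 the direction was mixed, with 14 genes higher and 12 lower in knockout cells and a median log2 difference of 0.02, while that over all genes was 0.00. Col3a1 and Col9a2 were called higher and Col27a1 lower, where 1.29% of all genes tested were called. Col3a1 differed by 1.10 (SE 0.14, adjusted p = 0.00021) on the log2 scale and by a ratio of mean TPM of 2.43. With a pseudocount of 0.1 the adjusted p of Col3a1 was 0.079. Col9a2 differed by 1.01 (SE 0.14, adjusted p = 0.00032), close to the 2-fold limit, and was below it without wild-type replicate 2 or knockout replicate 1 or 2 at day 3, with a lowest value of 0.86 over the alternatives. Fitted on the libraries of the comparison alone, it had an adjusted p of 0.057. Col27a1 differed by -1.06 (SE 0.17, adjusted p = 0.0014) and was below 2-fold without knockout replicate 3 at day 3 (-0.92).

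Other collagens differed at day 3 with an adjusted p under 0.05 and by less than 2-fold on the log2(TPM + 1) scale. Col2a1 (0.99, SE 0.17), Col5a2 (0.77, SE 0.16), Col1a1 (0.69, SE 0.15), Col1a2 (0.60, SE 0.15) and Col18a1 (0.45, SE 0.10) were higher in knockout cells, and Col8a1 (-0.90, SE 0.16) was lower. In mean TPM, Col2a1 was at 15.8 ± 2.24 (SD, n = 3) in wild-type and 32.4 ± 4.81 (SD, n = 3) in knockout cells. Col8a1 had means of 4.41 TPM in wild-type and 1.92 TPM in knockout cells. For both genes the difference in mean TPM exceeded 2-fold. With reads tested by voom, Col2a1 (1.04) was also called higher and Col8a1 (-1.22) lower, 5 genes in all, where voom called 1.93% of all genes. The genes that were higher include both chains of type I collagen, its fibril partners Col3a1 and Col5a2, and the cartilage genes Col2a1 and Col9a2, whereas Col5a1, Col11a1 and Col12a1 overlapped between the genotypes. Cartilage genes did not move as a group, since Col27a1 was called lower. Lower means in knockout than in wild-type cells, with overlap, were those of Col11a2 (3.06 and 3.82 TPM) and Col9a3 (2.77 and 3.48 TPM).

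**Figure D4:**
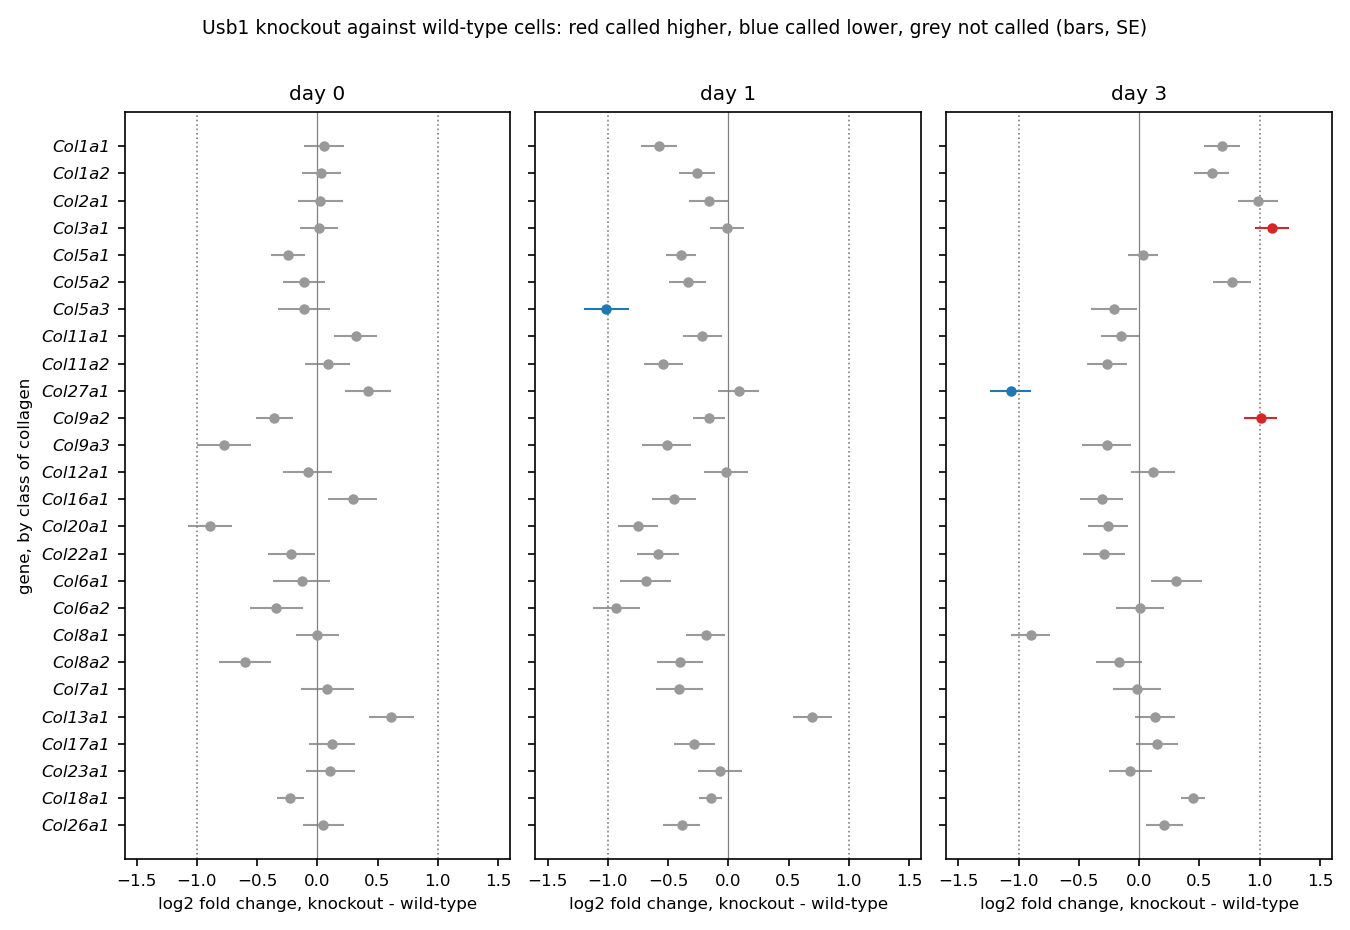
Log2 difference of Usb1 knockout minus wild-type cells (x axis, log2(TPM + 1) scale, bars SE) for the 26 tested collagen genes (y axis) at day 0, day 1 and day 3, with genes called higher in red, called lower in blue and others in grey, and dotted lines at 2-fold. Most points lie left of 0 at day 1, and at day 3 Col3a1 and Col9a2 lie to the right of the upper line and Col27a1 to the left of the lower one.

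The difference between the genotypes in their response to RA was tested directly. From day 0 to day 1 no gene of the 26 was called by limma or by voom, where limma called 0.86% and voom 1.27% of all genes. At an unadjusted p under 0.05 there were 5, as was so for 18.1% of all genes. From day 0 to day 3 the change was larger in knockout cells for Col3a1 and Col9a2 and smaller for Col27a1, where 2.42% of all genes were called. Without wild-type replicate 1 at day 0, Col2a1 and Col5a2 were called as well, 5 genes in all, and the share over all genes is not given for this setting. From day 1 to day 3 the change was larger in knockout cells for Col1a1, Col2a1, Col3a1, Col5a2 and Col9a2 and smaller for Col27a1, where 2.25% of all genes were called. With reads tested by voom, 7 genes were called, namely Col1a1, Col2a1, Col9a2, Col1a2 (2.97), Col6a2 (1.53) and Col26a1 (1.53) with a larger change in knockout cells and Col27a1 with a smaller one, where voom called 2.26% of all genes. For Col1a1, the mean TPM rose from 5.19 ± 0.635 (SD, n = 3) to 24.1 ± 3.76 (SD, n = 3) in wild-type and from 3.15 ± 0.0574 (SD, n = 3) to 39.2 ± 4.09 (SD, n = 3) in knockout cells. The median of this difference over the 26 genes was 0.43, and that over all genes tested was 0.13.

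Markers of other cell types also moved in these libraries. From day 0 to day 3, 16.1% of all genes tested were called higher in wild-type and 13.8% in knockout cells. Between the genotypes, 3.05%, 2.22% and 1.29% of all genes were called at day 0, day 1 and day 3. An absence of calls between the genotypes in lists this short does not set them apart from all genes. Of 8 markers of primitive and parietal endoderm, the lineage that lays down a thick basement membrane, 8 were called higher at day 3 than at day 0 in wild-type and 7 in knockout cells. Of these 8, 4 were called lower in knockout than in wild-type cells at day 1 (Gata6, Dab2, Lama1 and Plat) and 5 at day 3 (Gata4, Sox17, Dab2, Lama1 and Lamb1). The summed level of the 8 was 167 to 192 TPM in wild-type and 66.0 to 83.6 TPM in knockout cells at day 1, and 2337 to 2745 TPM and 981 to 1130 TPM at day 3, and none of the 8 was at 0 in all libraries of a group on these days. Of 8 mesenchyme markers, 6 were tested, of which 4 rose in wild-type and 6 in knockout cells from day 0 to day 3, and in knockout cells Twist1 was called higher at day 0 and Foxc2 and Meox1 at day 3. The summed level of the mesenchyme markers at day 3 was 36.2 to 40.0 TPM in wild-type and 66.8 to 72.7 TPM in knockout cells. Of 10 fibroblast markers other than collagens, 6 were tested, 3 rose and 1 fell in wild-type cells, 4 rose in knockout cells, and none was called between the genotypes at day 3. Their sum at day 3 was 142 to 158 TPM in wild-type, with S100a4 at 0 in all 3 libraries, and 176 to 203 TPM in knockout cells, with Fap at 0 in all 3.

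Of 6 cartilage markers, 2 rose and 1 fell in wild-type and 2 rose in knockout cells from day 0 to day 3. In this comparison 25.8% of all genes tested were called in wild-type and 21.9% in knockout cells. Sox9 was called higher in knockout cells at day 3, and the summed level was 20.4 to 28.0 TPM in wild-type and 31.2 to 38.9 TPM in knockout cells. Acan, the cartilage proteoglycan, was below its day 0 level in both genotypes at day 3 (-0.81 and -0.67 on the log2 scale, below 2-fold). Of 7 neural progenitor markers, 4 were tested, 1 rose and 1 fell in each genotype, and none was called between the genotypes on any of the 3 days. Their sums were 88.1 to 95.3 TPM in wild-type and 110 to 130 TPM in knockout cells at day 3. At day 0 the sums were 16.9 to 19.0 TPM and 21.2 to 24.4 TPM, whereas the median log2 changes of the 4 were -0.21 and 0.14. These sums thus follow the highest genes and do not describe the list as a whole. The 6 embryonic stem cell markers summed to 312 to 353 TPM in wild-type and 510 to 578 TPM in knockout cells at day 3, and Nanog and Esrrb were called higher in knockout cells then. At day 1 their sum was 2836 to 2922 TPM and 3587 to 3678 TPM, with Esrrb called higher in knockout cells. The part of these markers in the differences between the genotypes in collagen levels was not tested.

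The intracellular machinery of collagen synthesis also rose. Of 20 genes for the hydroxylation, folding and export of collagen, 13 were called higher at day 3 than at day 0 in wild-type cells. In knockout cells 11 were called higher, and none was lower in either genotype. The shares of all genes called higher were 16.1% in wild-type and 13.8% in knockout cells. The median log2 fold change over the 20 was 1.34 and 1.08, beside 0.10 and 0.03 over all genes. Serpinh1, which encodes HSP47, was at 60.3 and 63.3 TPM at day 0, at 425, 397 and 357 TPM at day 1, then 2252, 2035 and 2067 TPM at day 3 in wild-type cells, and at 63.2 to 79.4 TPM, 268 to 325 TPM and 1447 to 1687 TPM in knockout cells. P4ha3, a catalytic subunit of prolyl 4-hydroxylase, had the largest change of the list, with a log2 fold change of 5.39 (SE 0.19) in wild-type and 5.23 (SE 0.17) in knockout cells. At day 1 its level was 8.76, 8.47 and 6.88 TPM in wild-type libraries against 2.097, 1.62 and 2.14 TPM in knockout libraries, a called difference (-1.61, SE 0.17, adjusted p = 2.1e-05). Plod2, the lysyl hydroxylase of the ends of the chains, was the only gene of the list called between the genotypes at day 3, with 199 to 214 TPM in wild-type and 87.3 to 105 TPM in knockout cells (-1.04, SE 0.08, adjusted p = 4.3e-06).

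Of 13 genes for propeptide removal and crosslinking, 10 were tested, and 4 rose and 2 fell from day 0 to day 3 in each genotype. Over all genes tested, 25.8% were called in either direction in wild-type and 21.9% in knockout cells. Those that rose were Bmp1, which cleaves the carboxy-terminal propeptides (3.93 in wild-type, 4.02 in knockout cells), and the lysyl oxidase genes Loxl2, Loxl3 and Loxl4. Those that fell were Adamts14, which cleaves the amino-terminal propeptides (-4.08 and -3.38), and Pcolce2, an enhancer of Bmp1 (-3.49 and -3.79). Loxl2 was lower in knockout cells at day 1, with 23.6 to 29.6 TPM in wild-type and 8.55 to 12.9 TPM in knockout libraries (-1.32, SE 0.17, adjusted p = 0.00012).

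**Figure D5:**
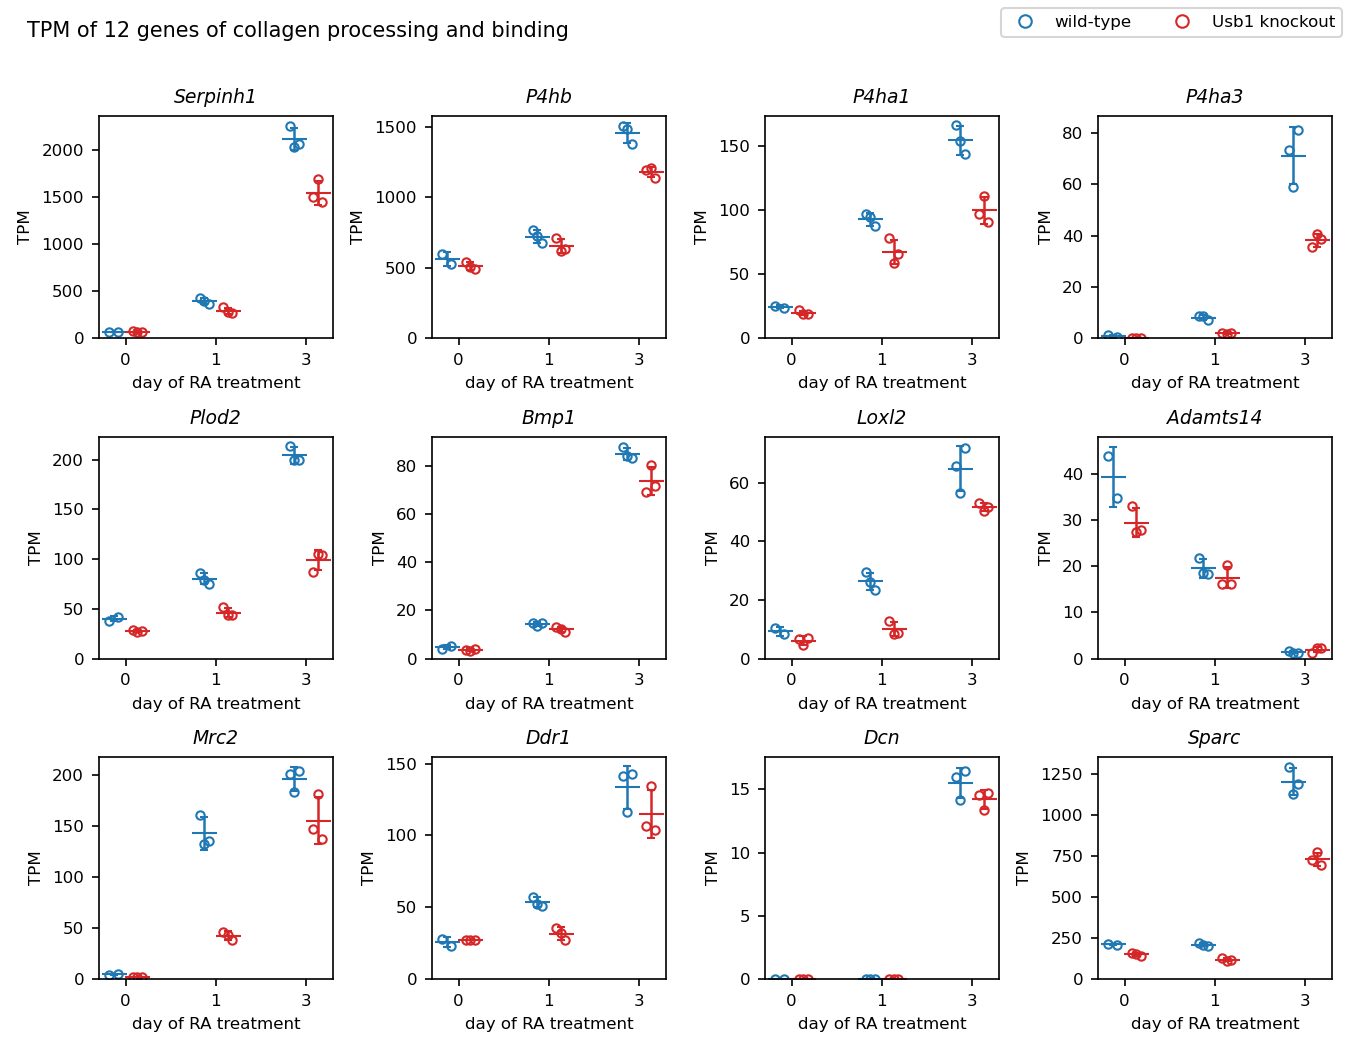
TPM of 12 genes of collagen processing, binding and the fibril surface (1 panel each, its own linear axis from 0) against day of RA treatment in wild-type (blue) and Usb1 knockout (red) cells, with circles for libraries and bars for mean and SD (n = 2 for wild-type at day 0, otherwise 3). Adamts14 declines while the other 11 genes are highest at day 3. The genotypes differ by a call at day 1 for P4ha3, Loxl2 and Mrc2 and at day 3 for Plod2. Libraries of the genotypes are also parted without a call elsewhere, such as for Serpinh1 at day 1 and day 3 and for Mrc2 at day 0.

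Of 10 collagen-binding receptors, 6 were tested and Itga1, Itgb1, Ddr1 and Mrc2 were called higher at day 3 than at day 0 in both genotypes. For this and the next 2 lists, the shares of all genes called higher were 16.1% in wild-type and 13.8% in knockout cells. Mrc2, which encodes the endocytic collagen receptor Endo180, was at 4.11 and 4.94 TPM at day 0, at 161, 132 and 135 TPM at day 1, then 201, 183 and 204 TPM at day 3 in wild-type cells. In knockout cells it was at 1.57 to 1.98 TPM, at 46.5, 43.5 and 38.0 TPM, and at 147, 182 and 137 TPM. It was called lower in knockout cells at day 1 (-1.72, SE 0.12, adjusted p = 3.6e-07) and not at day 3. Of 6 collagen-cleaving proteases, 4 were tested, 2 rose in wild-type cells (Mmp14 and Ctsk) and 3 in knockout cells (these and Mmp9). Mmp9 was called higher in knockout cells at day 3, with 1.44 to 2.93 TPM in wild-type and 6.31 to 7.01 TPM in knockout libraries (1.34, SE 0.27, adjusted p = 0.0074). Of 10 fibril-associated matrix proteins, 7 were tested, and 6 rose in wild-type and 7 in knockout cells. None was called between the genotypes on any of the 3 days, where 3.05%, 2.22% and 1.29% of all genes were called. With 7 genes, this does not set the list apart from all genes. Dcn, which encodes the small proteoglycan decorin that binds collagen fibrils, was at 0 in every library at day 0 and day 1. It was at 14.2 to 16.4 TPM in wild-type and 13.4 to 14.7 TPM in knockout cells at day 3. Dcn thus passed the filter only through its day 3 levels, which favours a rise in the count of its list.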

How the data were processed

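RNA of R1/E cells was measured in 17 libraries, grouped by genotype and day as labelled. Libraries were made by the authors with a NEBNext Ultra kit for Illumina NovaSeq sequencing, and the deposited values are TPM, calculated from gene length and the reads on each gene. Their processing notes name HISAT2 2.1.0, StringTie 1.3.6 and GRCm38.p6. The authors' own tests used a count model. The deposited values are not counts, so TPM was tested. Replicates are described as independent. Their numbers were not shown to pair libraries, and p-values measure the spread between these samples.

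Exon lengths and coordinates came from GENCODE M21, which matched all 38 genes by identifier. TPM multiplied by exon length and divided by the step of the library gave whole reads (within 0.01) for 95.9% to 96.7% of genes above 0. Limits for a count of 0 (3 reads) cover counting error only. Genes with at least 1 TPM in at least 2 libraries (21871) were tested with limma 3.58.1 (R 4.3.3), group means over all 17 libraries and a variance trend, on log2(TPM + 1) in 12 comparisons, with p-values adjusted by Benjamini-Hochberg over all genes. The fit was tested on simulated data. Promoter stretches are from RefSeq. Tables and plots were made with Python 3.11.15 (pandas 2.3.3, numpy 2.4.6, matplotlib 3.10.9).

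The collagen genes and all lists (collagen classes, synthesis, processing, receptors, proteases, fibril-associated proteins, and markers of 6 cell types) were drawn from general knowledge with earlier results of these data known. Values by library are given for collagen genes called between genotypes or in an interaction and for the 8 with the largest change from day 0 to day 3. Col8a1, Col13a1, Col18a1 and others given by library were added after their values were seen. Up to 4 examples a list are those called with the largest change, or called between genotypes. Alternatives were a pseudocount of 0.1, no filter, a filter at 5 TPM, quantile normalization, replicate number as a block, a fit on only the libraries compared, and leaving out each library in turn. Voom on recovered reads, and leaving out both libraries with few genes of a single read, were added after seeing the data.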

Additional observations from a re-analysis of the deposited data

Results flagged for a closer look

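The changes over time differed between the genotypes, by the interaction term of the limma fit over all 17 libraries, in 9 cases among the 26 collagen genes and 3 interactions. Positive values mean a larger change in Usb1 knockout cells, on the log2(TPM + 1) scale. These tests share libraries, so the 2 intervals of a gene are not separate evidence. From day 0 to day 3, the difference was 1.36 (SE 0.20, adjusted p = 0.0015) for Col9a2, 1.09 (SE 0.21, adjusted p = 0.0085) for Col3a1 and -1.49 (SE 0.26, adjusted p = 0.0040) for Col27a1. For Col3a1 the call was lost with a pseudocount of 0.1, with a filter at 5 TPM and with voom, and the highest adjusted p was 0.66. Its day 0 level is 0 or 1 read in each library, so its size on this scale follows from the day 3 levels and the pseudocount. For Col27a1 quantile normalization gave -0.97 (adjusted p = 0.069).

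From day 1 to day 3, the difference was 1.17 (SE 0.19, adjusted p = 0.0020) for Col9a2, 1.26 (SE 0.21, adjusted p = 0.0023) for Col1a1, 1.15 (SE 0.24, adjusted p = 0.0090) for Col2a1, 1.11 (SE 0.22, adjusted p = 0.0076) for Col5a2, 1.11 (SE 0.20, adjusted p = 0.0037) for Col3a1 and -1.15 (SE 0.24, adjusted p = 0.010) for Col27a1. Col1a1 and Col9a2 remained called under all 20 alternatives run for this interaction. Col2a1 was below 2-fold after quantile normalization and without knockout replicate 3 at day 1 (lowest 0.97). Col5a2 was lost with a pseudocount of 0.1, quantile normalization and voom, Col3a1 with a pseudocount of 0.1 and voom, and Col27a1 with a pseudocount of 0.1. Voom called 3 genes for this interval that limma did not, Col1a2 (2.97, SE 0.69, adjusted p = 0.0093), Col6a2 (1.53, adjusted p = 0.018) and Col26a1 (1.53, adjusted p = 0.033). The knockout cells are of 1 line, and the part of the line, or of the markers given above, in these differences was not tested.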

How the results depend on the processing

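No collagen gene called changed direction under any alternative. The counts of called collagen genes were within 1.5 times the values given with no filter, with a filter at 5 TPM, and with the libraries of each comparison alone. Shares over all genes are given above beside counts of collagen genes by limma and voom, and not for the other alternatives. Counts under those alternatives thus do not show whether a shift was particular to the collagens. With a pseudocount of 0.1, 2 genes were called between the genotypes at day 0 and 3 at day 1, 17 from day 0 to day 1 in wild-type and 12 in knockout cells, and 3 for the difference between the genotypes from day 1 to day 3. With voom on recovered reads, 2, 5 and 5 were called between the genotypes at day 0, day 1 and day 3, and 18 and 13 from day 0 to day 1 in wild-type and knockout cells. Both settings give genes below 1 TPM more weight, and with them the values of 0 in wild-type replicate 1 at day 0. After quantile normalization, 0 were called between the genotypes at day 1, and the calls of Col6a2 and Col11a2 at day 1 in wild-type, Col26a1 at day 3 in knockout, and Col7a1 at day 3 in both were lost. Without both libraries with few genes of a single read, 5 differed between the genotypes from day 0 to day 3. Leaving out each library gave 0 to 1 genes between the genotypes at day 0, 0 to 2 at day 1, 0 to 1 for the difference from day 0 to day 1 and 3 to 5 for that from day 0 to day 3. The 0 at day 1 came without knockout replicate 1, the 5 without wild-type replicate 1 at day 0, and the 1 at day 0 without wild-type replicate 2 (Col9a3) or knockout replicate 3 (Col20a1).

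With the replicate number as a block, the counts were those of the unblocked fit in all 12 comparisons, 18 and 20 from day 0 to day 3 in wild-type and knockout cells. Deviations of same-numbered libraries correlated at -0.13 to 0.12 over 40 pairs, 1 of them over 0.1, and those of other libraries at -0.12 to 0.11 over 80 pairs. The number thus gave no sign of pairing, and whether same-numbered libraries shared a culture or preparation was not tested. Depth limits the lowest genes, such as Col1a2 in knockout cells before day 3, where 1 to 6 reads stand behind a value.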
